A study of Homo sapiens with 9 samples.

Results

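The extracellular matrix genes described here are 34 named genes, of 36601 in the deposited matrices: 13 collagen chains, 5 matrix glycoproteins, 3 laminin chains, 6 genes of collagen modification and folding, 2 crosslinking enzymes, and 5 proteases and protease inhibitors. They were taken by symbol from a list, and each symbol matched 1 gene. The cells were U2OS, a human osteosarcoma line. Their RPB1, the largest subunit of RNA polymerase II, carried HaloTag or Dendra2 at its N terminus and a C-terminal domain (CTD) of 25, 52 or 70 heptad repeats (25R, 52R and 70R). All 6 lines were kept in α-amanitin at 1 µg/ml for 6 days, which blocks the cell's own polymerase, so the controls carry the tag and the drug too. Untagged or untreated cells were not analysed here, and the sources used here do not say whether a line is 1 clone.

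Each of the 6 genotypes is 1 single-cell library, and the 9 labelled samples are these libraries with the HaloTag ones sequenced in 2 runs. HaloTag and Dendra2 libraries were sequenced on different dates, so the tag and the sequencing campaign cannot be told apart. The libraries kept between 2718 and 4677 cells and between 52553686 and 58442223 UMIs (unique molecular identifiers, 1 per captured RNA molecule). The median cell held 10812 to 16020 UMIs with HaloTag and 15770 to 18739 with Dendra2. Pairs of libraries shared 0 to 7 cell barcodes. The labels call the cells epithelial. E-cadherin (CDH1) was at 0.11 to 0.43 CPM (counts-per-million of the UMIs) and 7 of 14 epithelial markers were below 1 CPM in every library. The keratins KRT18 (699 to 1266 CPM) and KRT8 (144 to 551 CPM) were high, and the 14 markers summed to 858 to 1614 CPM. Of the mesenchymal markers, 8 of 10 were at 1 CPM or more in every library, vimentin (VIM) at 2554 to 3784 CPM. Of 10 osteoblast markers, SP7 and IBSP were at 0.03 CPM or less.

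Collagens are triple helices of 3 chains, and a chain is hydroxylated, folded with a chaperone, secreted, trimmed and crosslinked before it forms fibrils or sheets. Fibrillar collagens (types I, III and V) give bone and tendon their strength, type IV forms the sheet of basement membranes with laminins, and type VI forms beaded filaments near cells. Fibronectin and SPARC bind collagen outside the cell, matrix metalloproteinases (MMPs) cut it, and tissue inhibitors of metalloproteinases (TIMPs) block the MMPs. Bone cells make chiefly type I collagen, as a trimer of α1 and α2 chains encoded by COL1A1 and COL1A2.

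Promoter sequences are shown for the members that turned out to differ most between tags, and for the 1 pair of members that share a promoter. COL4A1 (chr13:110148963-110307157, minus strand) and COL4A2 (chr13:110305812-110513209, plus strand) overlap at their 5′ ends in GENCODE v44 on GRCh38. Their RefSeq starts lie 127 bases apart and point away from each other, so the sequence between them is upstream of both. FN1 lies at chr2:215360440-215436073 and COL6A3 at chr2:237324003-237414328, both on the minus strand, and neither is overlapped by another gene of the matrices. The stretch between the COL4 starts (chr13:110307158-110307283, plus strand), and the 150 bases before the RefSeq starts of FN1 (chr2:215436069-215436218, minus strand) and COL6A3 (chr2:237414165-237414314, minus strand), are from RefSeq on GRCh38.p14, 5′ to 3′. These motifs were searched on both strands and are marked in capitals. The CCAAT box is spelled by its name, and the GC box is GGGCGG. The TATA box was searched as TATAAA. The cyclic AMP response element is TGACGTCA, and the AP-1 site is TGAGTCA.
COL4A1 and COL4A2: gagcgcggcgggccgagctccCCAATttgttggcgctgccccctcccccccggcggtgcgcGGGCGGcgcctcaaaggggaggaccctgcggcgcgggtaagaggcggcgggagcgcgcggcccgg
FN1: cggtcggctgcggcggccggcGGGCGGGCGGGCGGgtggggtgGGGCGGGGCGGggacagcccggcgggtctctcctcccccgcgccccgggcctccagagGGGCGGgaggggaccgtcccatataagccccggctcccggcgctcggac
COL6A3: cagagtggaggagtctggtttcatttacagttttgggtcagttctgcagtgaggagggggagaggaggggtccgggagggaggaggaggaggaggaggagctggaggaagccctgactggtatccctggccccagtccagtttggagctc

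The stretch shared by the COL4 genes holds 1 CCAAT and 1 GC box. The 150 bases of FN1 hold 6 GC boxes, some of which overlap, and those of COL6A3 hold none of the 5 motifs. In the 250 bases before the start, 25 of the 34 members had 30 windows in the table. A GC box lay in 20 of these 30 windows, from 18 members, beside 42.6% of all 35116 windows in the table. CCAAT lay in 9 of the 30, from 9 members (32.0% of all windows), and TATAAA in 4, from 4 members (10.7%). The cyclic AMP response element lay in 1 of the 30, that of FN1 (1.65%), and the AP-1 site in none (4.20%). These are matches of letters and not binding sites.

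The members together took 0.128% to 0.228% of all UMIs, and single genes ran from almost no counts to 966 CPM. The 3′ chemistry counts each captured molecule once whatever its length, so levels in CPM may be set beside each other, though capture can differ between genes. A gene's level by library is given below per TMM-scaled library size, as in the tests. Levels and sums of marker genes and sums over members are per plain UMI total. So are levels within groups of cells and the limit for a count of 0. Values on these 2 scales are not set against each other, apart from 1 count of osteoblast markers where this is said. TIMP1, a TIMP that is also a growth factor, was highest and made up 46.4%, 36.5% and 39.6% of the members' UMIs in HaloTag 25R, 52R and 70R, and 33.4%, 27.0% and 28.0% in the Dendra2 libraries in that order. SPARC (130 to 248 CPM) and the collagen chaperone SERPINH1 (75.6 to 187 CPM) followed. COL1A1 was found at 43.2 to 211 CPM, but its partner chain COL1A2 was nearly absent: 4, 2 and 11 UMIs in HaloTag 25R, 52R and 70R and 1, 0 and 3 in Dendra2. A count of 0 allows up to 0.0571 CPM in Dendra2 52R, from 3 counts of its total. THBS2 (thrombospondin 2, a matricellular protein) had at most 5 UMIs in a library. These 2 genes did not pass the filter on low counts, and 32 members were tested.

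**Figure D1:**
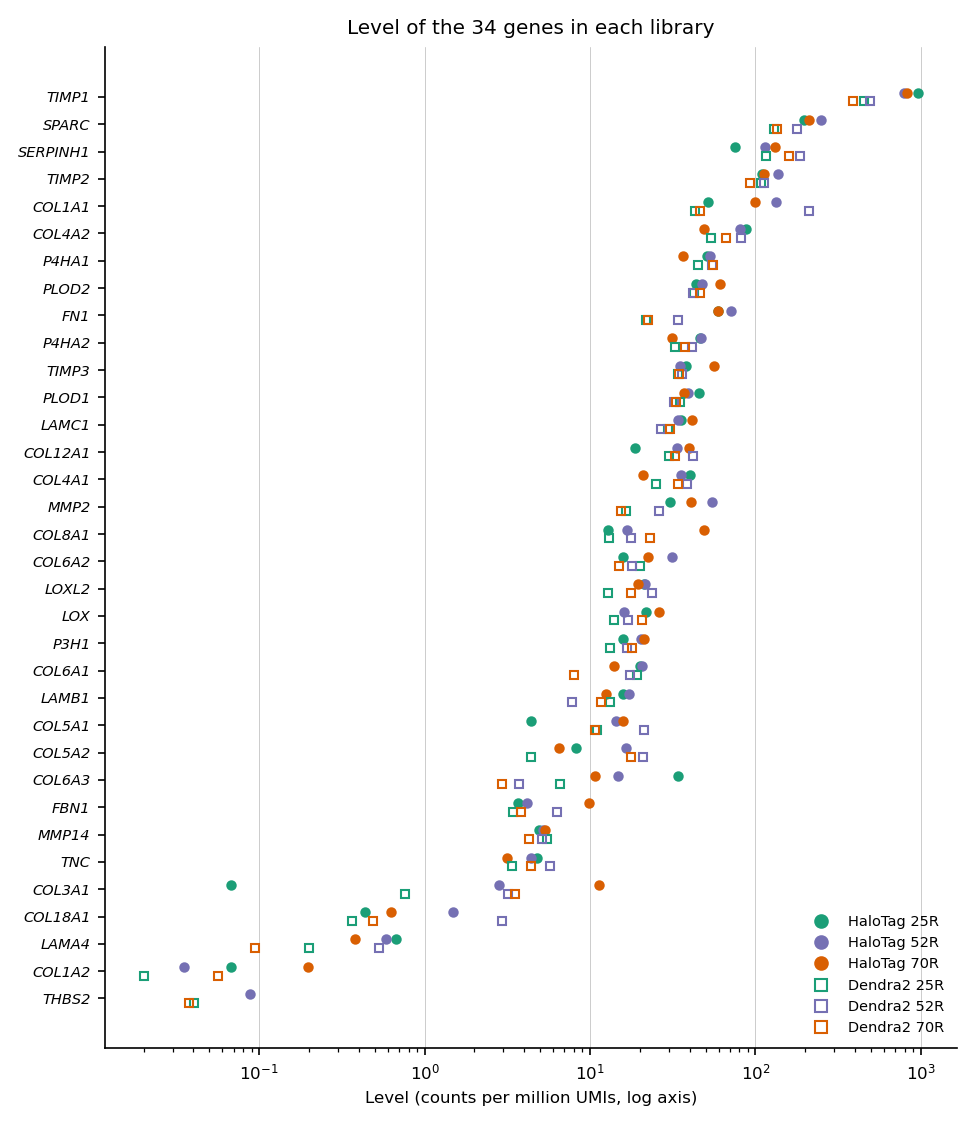
Level of each of the 34 genes in each of the 6 libraries, in CPM on a log axis; filled circles are HaloTag, open squares Dendra2, and colours give the CTD length. A count of 0 is not drawn. TIMP1 lies at 389 to 966 CPM and COL1A2 and THBS2 lie at the foot, at 0.20 CPM or less.

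COL6A3, the long α3 chain of type VI collagen, had the largest fitted difference between tags of the 32 tested members. It was at 34.3, 14.8 and 10.8 CPM in the 25R, 52R and 70R libraries with HaloTag. With Dendra2 it was at 6.59, 3.73 and 2.93 CPM. The lowest HaloTag library was above the highest Dendra2 library, and in both tags the level stood highest at 25R and lowest at 70R. The fitted difference was 2.09 ± 0.17 (log2, SE), with an adjusted p of 0.0198 in edgeR's quasi-likelihood test over 18069 genes, and all 3 HaloTag libraries were above their Dendra2 partners. The partner chains differed less: COL6A1 by 0.38 ± 0.18 (log2, SE, adjusted p 0.320) and COL6A2 by 0.36 ± 0.24 (adjusted p 0.442), both with overlapping groups. As a share of the UMIs of the 3 chains, COL6A3 made up 48.7% (95% exact interval 47.2% to 50.3%), 22.2% (20.8% to 23.5%) and 22.8% (21.2% to 24.5%) in HaloTag 25R, 52R and 70R. The Dendra2 shares were 14.4% (13.0% to 15.9%), 9.52% (8.27% to 10.9%) and 11.3% (9.71% to 13.1%). These intervals cover counting error only.

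Among the glycoproteins, FN1 (fibronectin) was higher with HaloTag. The HaloTag levels were 59.1, 71.7 and 59.4 CPM at 25R, 52R and 70R, and the Dendra2 levels 21.7, 33.9 and 22.3 CPM. The groups did not overlap, and 52R was the highest library of both. The difference was 1.31 ± 0.14 (log2, SE), with an adjusted p of 0.0329 in edgeR. SPARC was at 198, 248 and 210 CPM with HaloTag and 130, 178 and 135 CPM with Dendra2. It kept the same order without overlap, at 0.58 ± 0.12 (log2, SE), but its adjusted p was 0.113. FBN1 (fibrillin, a microfibril protein) and TNC (tenascin C) were at 3.13 to 9.80 CPM, with overlapping groups.

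Of the proteases and inhibitors, none passed the adjusted threshold in edgeR, though MMP2 and TIMP1 came near it. MMP2, which cuts denatured and type IV collagen, had HaloTag levels of 30.5, 54.5 and 40.6 CPM at 25R, 52R and 70R and Dendra2 levels of 16.5, 26.3 and 15.3 CPM. The difference was 1.11 ± 0.15 (log2, SE, adjusted p 0.0720). TIMP1 was at 966, 791 and 823 CPM with HaloTag and 454, 493 and 389 CPM with Dendra2, a difference of 0.95 ± 0.14 (log2, SE, adjusted p 0.0740). Neither gene's groups overlapped. MMP14, the membrane protease that activates MMP2, was at 4.30 to 5.51 CPM and its groups overlapped, as did those of TIMP2 (93.1 to 137 CPM) and TIMP3 (33.9 to 56.3 CPM).

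The collagen chains other than type VI had mixed signs between tags. Fitted values above 0 came from 1 of 4 tested fibrillar chains and 1 of 3 basement membrane chains, beside 52.5% of all genes. SERPINH1 had the lowest fitted difference of all members. It was at 75.6, 114 and 131 CPM with HaloTag and 115, 187 and 159 CPM with Dendra2. HaloTag was below Dendra2 at each CTD length, the groups overlapped, and the difference was -0.54 ± 0.14 (log2, SE, adjusted p 0.139). The other genes of collagen modification, the prolyl and lysyl hydroxylases P3H1, P4HA1, P4HA2, PLOD1 and PLOD2, had fitted differences from -0.16 (P4HA1) to 0.27 (PLOD1). LOX and LOXL2, which crosslink collagen, were at 0.30 and 0.25. All 3 laminin chains, subunits of the basement membrane protein, had fitted values above 0, as did 52.5% of all genes. LAMA4 was at 0.68, 0.58 and 0.38 CPM in the 25R, 52R and 70R libraries with HaloTag and 0.20, 0.53 and 0.09 CPM with Dendra2. These levels rest on 5 to 40 UMIs a library and the groups overlapped (1.18 ± 0.49, log2, SE, adjusted p 0.257). LAMB1 was at 12.5 to 17.3 CPM with HaloTag and 7.77 to 13.1 CPM with Dendra2, also with overlap (0.50 ± 0.23, log2, SE, adjusted p 0.299). LAMC1 was at 27.0 to 30.7 CPM in Dendra2 and 34.2 to 41.2 CPM in HaloTag (0.35 ± 0.12, log2, SE, adjusted p 0.212).

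In all, 2 of 32 members passed the adjusted threshold between tags, COL6A3 and FN1, beside 0.26% of all genes tested. At an unadjusted p under 0.05 there were 7 of 32 (21.9%), beside 19.5% of all genes, a share near the background. All 3 HaloTag libraries lay above all 3 Dendra2 libraries for 7 members (COL6A3, FN1, SPARC, LAMC1, PLOD1, MMP2 and TIMP1), beside 12.7% of all genes, and below them for 0 members, beside 11.6%. The median difference of the 32 members was 0.25 (log2) with 23 above 0, beside 0.03 for all genes with 52.5% above 0. By pair of libraries that median was 0.26 at 25R, 0.00012 at 52R and 0.38 at 70R. The members' summed level was 2108, 2277 and 2128 CPM in HaloTag 25R, 52R and 70R and 1281, 1780 and 1384 CPM in Dendra2. Without TIMP1 it was 1130, 1445 and 1285 CPM against 853, 1299 and 997 CPM, and the groups then overlapped.

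**Figure D2:**
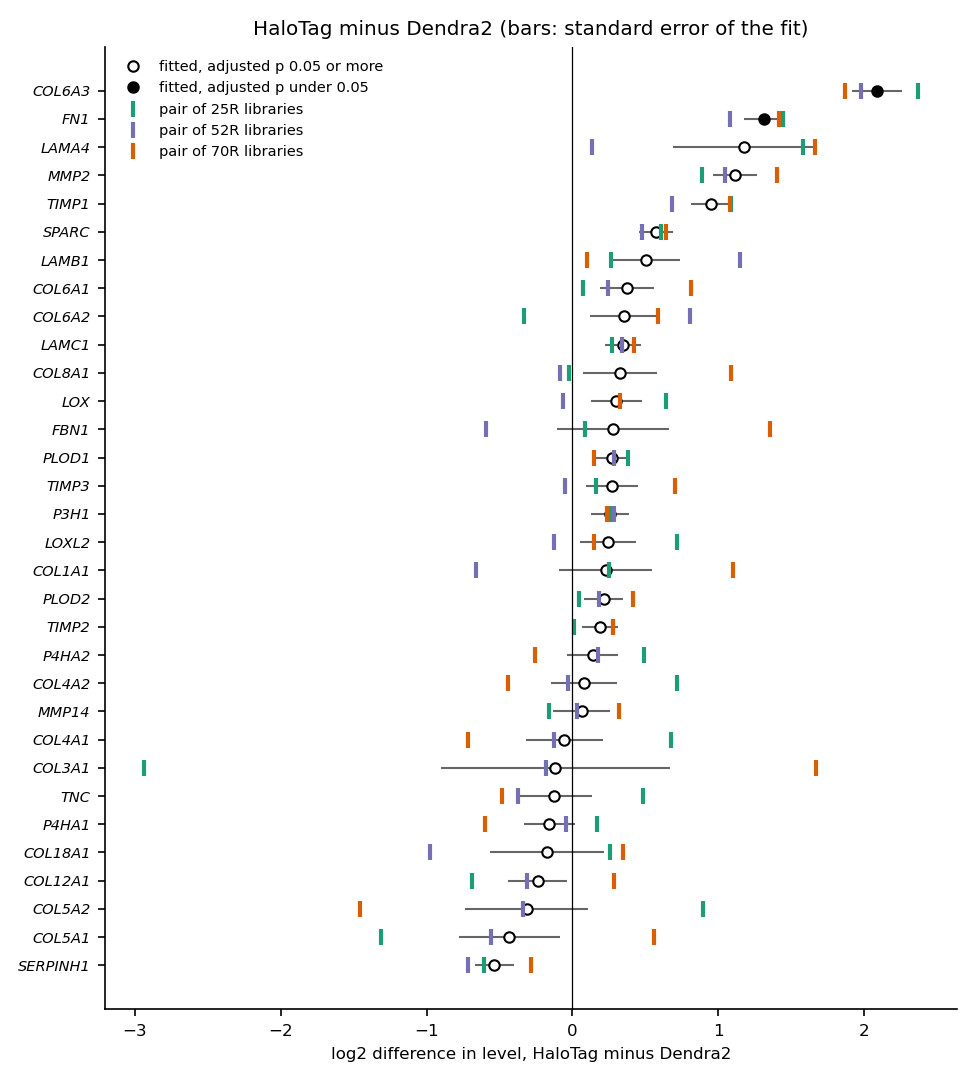
Fitted log2 difference of the 32 tested genes, HaloTag minus Dendra2, with its standard error; coloured ticks give the difference within each pair of libraries of equal CTD length. The filled points, COL6A3 at 2.09 and FN1 at 1.31, passed the adjusted threshold.

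Both calls rest on few libraries. COL6A3 had an adjusted p of 0.0964, 0.0740 and 0.0531 without HaloTag 52R, Dendra2 52R and Dendra2 70R, with log2 differences of 2.13 to 2.18. FN1 had 0.141, 0.103, 0.108 and 0.111 without HaloTag 52R, HaloTag 70R, Dendra2 52R and Dendra2 70R. With 1 library left out, 1 residual degree of freedom remains. DESeq2's Wald test called 6 members (COL6A3, FN1, MMP2, SPARC and TIMP1 higher, SERPINH1 lower with HaloTag). It called 1130 of the 18069 genes tested, where edgeR called 47.

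Other measures moved with the tag. The median mitochondrial share of a cell's UMIs, a sign of RNA quality, was 6.85%, 8.86% and 9.08% in HaloTag 25R, 52R and 70R and 5.99%, 6.13% and 5.41% in Dendra2, without overlap. Cells called neither S nor G2/M made up 31.3% to 33.8% of HaloTag and 11.7% to 15.8% of Dendra2 cells when each library was scored alone. With all libraries scored together they were 33.1% to 36.5% and 12.3% to 16.2%. Within those cells the COL6A3 difference was 1.60 (log2, adjusted p 0.0564 in edgeR), or 1.50 (adjusted p 0.0547) with the joint scoring. FN1 was at 1.33 (adjusted p 0.0329) or 1.29 (adjusted p 0.0458). Summed osteoblast markers stood at 90.1 to 113 CPM with HaloTag and 31.7 to 43.3 CPM with Dendra2. Of the 10 markers, 4 were higher with HaloTag without overlap on plain UMI totals, beside 12.7% of all genes tested on TMM-scaled levels. That share is only a rough background. Plain totals move the median of all genes from 0.03 to 0.111 log2, and the tested genes had passed the filter on low counts, which the markers had not. TNFRSF11B alone was at 38.0 to 74.4 CPM with HaloTag and 9.12 to 11.1 CPM with Dendra2. Endothelial markers summed to 1.92 to 2.73 CPM with HaloTag and 2.34 to 2.44 CPM with Dendra2, with 7 of 8 below 1 CPM in every library. Leukocyte markers summed to 3.06 to 19.6 CPM and 1.92 to 5.71 CPM, with none of 10 at 1 CPM in every library. In HaloTag 25R, which had the highest sum, CD3D alone was at 17.1 CPM and PTPRC at 0.65 CPM. The part of the mitochondrial share and of osteoblast and leukocyte markers in the tag differences was not tested.

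Against the 52R length, no member passed the adjusted threshold in edgeR: 0 of 32 for 25R minus 52R (0.0443% of all genes), 70R minus 52R (0% of all genes) and 70R minus 25R (0%). At an unadjusted p under 0.05 there were 11 members (34.4%) for 25R minus 52R, beside 12.7% of all genes. For 70R minus 52R there were 7 (21.9%), beside 4.63%, and for 70R minus 25R there were 7, beside 12.3%. Both comparisons with 52R share the 2 libraries of that length. DESeq2 called 5, 0 and 3 members in the same order. The shares of all genes it called in these comparisons are not given, so the counts are no result about the members.

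Of the fibrillar chains, 4 were tested, and all had lower levels at 25R than at 52R in both tags, though none passed the adjusted threshold. COL1A1 stood at 51.4, 133 and 99.1 CPM for 25R, 52R and 70R with HaloTag, and 43.2, 211 and 46.2 CPM with Dendra2. In both tags 52R was highest, and 25R minus 52R was -1.90 ± 0.39 (log2, SE, edgeR adjusted p 0.224). COL3A1, the type III chain, was at 0.07, 2.81 and 11.4 CPM with HaloTag and 0.76, 3.18 and 3.55 CPM with Dendra2. It was lowest at 25R and highest at 70R in both tags, and 70R minus 25R was 4.26 ± 1.07 (log2, SE, adjusted p 0.271), where the HaloTag 25R library held almost no counts. COL5A1 and COL5A2, chains of the type V collagen that joins type I fibrils, did not share an order at 70R. COL5A1 was at 4.43, 14.4 and 15.9 CPM for 25R, 52R and 70R with HaloTag, and 11.0, 21.2 and 10.8 CPM with Dendra2. COL5A2 was at 8.26, 16.6 and 6.46 CPM with HaloTag, and 4.42, 21.0 and 17.7 CPM with Dendra2. COL1A2, untested, had more UMIs at 25R than at 52R in both tags, at counts of 4 or less.

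Both 25R libraries lay below both 52R libraries for 12 members, beside 19.3% of all genes. They were COL1A1, COL3A1, COL5A1, COL5A2, COL18A1, COL8A1, COL12A1, FBN1, P3H1, P4HA1, LOXL2 and TIMP2. They lay above for 0 members, beside 19.4% of all genes. Both 70R libraries lay below both 52R libraries for 9 members (15.3% of all genes) and above for 3 (COL3A1, COL8A1 and LOX, beside 13.6%). COL18A1, whose chain holds endostatin at its end, was at 1.48 and 2.95 CPM at 52R and at 0.36 to 0.63 CPM in the other libraries. COL6A3 ran the other way at 25R, with 25R minus 52R at 1.03 ± 0.21 (log2, SE, edgeR adjusted p 0.220). The median of the 32 members was -0.32 for 25R minus 52R, -0.28 for 70R minus 52R and 0.10 for 70R minus 25R, beside 0.01, -0.01 and -0.02 for all genes. Medians of the 6 lists of related genes described below ran from -0.32 (other matrix proteins) to -0.04 (other matrix enzymes) for 25R minus 52R. For 70R minus 52R they ran from -0.20 (other matrix proteins) to 0.003 (other matrix enzymes).

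**Figure D3:**
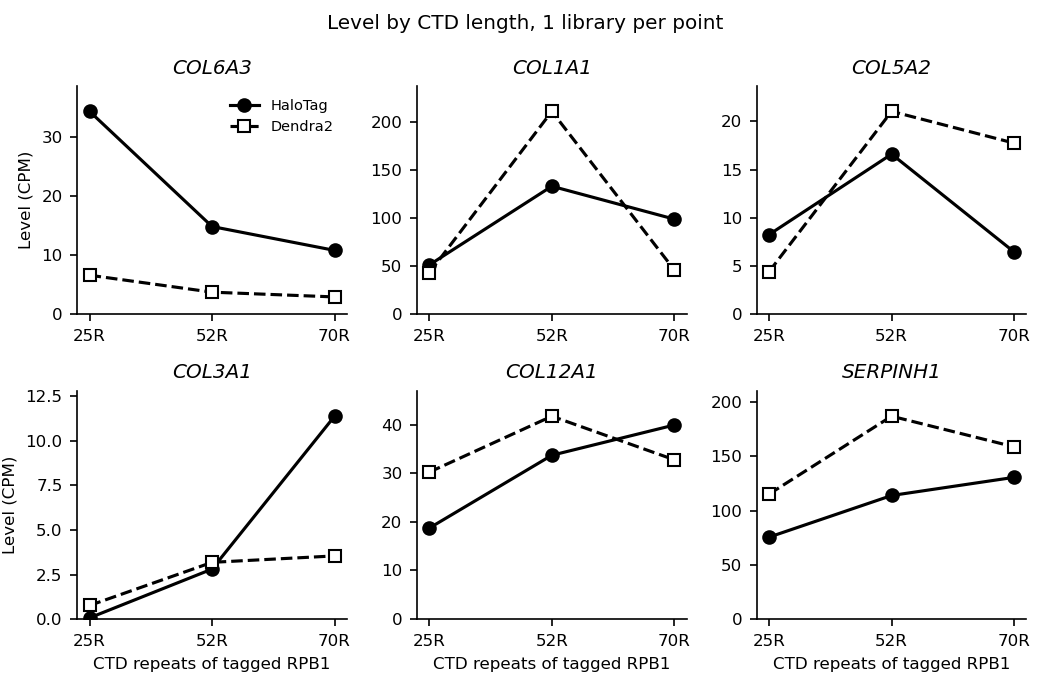
Level in CPM of 6 genes against the CTD length of the tagged RPB1, 1 library per point; solid lines are HaloTag and dashed lines Dendra2. COL1A1 is highest at 52R in both tags (133 and 211 CPM) and COL6A3 is highest at 25R (34.3 and 6.59 CPM).

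The 2 chains of type IV collagen that share a promoter had similar patterns over the libraries. COL4A1 had 40.0, 35.4 and 20.9 CPM for 25R, 52R and 70R with HaloTag, and 25.0, 38.7 and 34.3 CPM with Dendra2. COL4A2 was at 88.4, 80.6 and 49.2 CPM and at 53.6, 82.2 and 66.8 CPM. There were 2.21, 2.28 and 2.35 COL4A2 UMIs per COL4A1 UMI in the HaloTag libraries and 2.14, 2.13 and 1.95 in the Dendra2 libraries. The 95% exact intervals, for counting error only, ran from 1.84 at the lowest to 2.52 at the highest, and those of HaloTag 70R (2.20 to 2.52) and Dendra2 70R (1.84 to 2.06) did not overlap. Reads where the 2 genes overlap, on opposite strands, were assigned by the authors' counting.

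The share of cells with a UMI differed widely between members. After each cell was thinned to 5000 UMIs, TIMP1 was seen in 92.3% to 96.7% of HaloTag and 78.7% to 85.4% of Dendra2 cells. SPARC was seen in 61.3% to 70.4% and 43.6% to 56.6%, FN1 in 19.0% to 23.6% and 8.9% to 14.9%, and COL6A3 in 5.4% to 15.1% and 1.6% to 3.4%. Correlations between members over cells were weak. For the 7 members with at least 0.2 UMIs per thinned cell in every library, the median Pearson r of 21 pairs was 0.015 to 0.038 per library. It was 0.0019 to 0.0027 over the pairs of all 2787 genes at that level, and the highest of any member pair was 0.125. These r share library and depth and are no finding.

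The deposited kinetic tables give for each gene a mean and a parameter K, used here as the burst frequency, and the mean divided by K is used as the burst size in UMIs. Of the members, 15 had finite values in every library and averaged 0.5 UMIs per cell or more over the libraries. Burst size is not scaled for depth, and over all 4355 genes its median fold between tags was 0.754, so the members' 0.987 stands against that. In burst frequency 0 of 15 members passed the adjusted threshold in limma for any contrast, beside 2.82% of genes for the tag, 0.0459% for 25R minus 52R, 0% for 70R minus 52R and 0.023% for 70R minus 25R. In burst size FN1 passed between tags, higher with HaloTag, and COL1A1 passed for 25R minus 52R, lower at 25R. Between tags 10.4% of all 4355 genes passed, 23 higher and 429 lower with HaloTag. For 25R minus 52R 0.712% passed, 12 higher and 19 lower at 25R. None of the 15 passed for 70R minus 52R (0.0459%) or 70R minus 25R (0.459%).

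The FN1 burst size was 1.07, 3.34 and 2.11 in HaloTag 25R, 52R and 70R and 0.521, 0.565 and 0.588 in Dendra2. All 3 HaloTag values were above all Dendra2 values, and the fitted fold was 3.52. The burst frequency of FN1 was 0.938, 0.329 and 0.334 with HaloTag and 0.665, 1.12 and 0.750 with Dendra2, so HaloTag 25R sat among the Dendra2 libraries (fold 0.569, limma adjusted p 0.288). The TIMP1 burst size was 5.38, 6.25 and 6.17 with HaloTag and 3.83, 3.43 and 3.62 with Dendra2 (fold 1.63, limma adjusted p 0.0520). COL1A1 had burst sizes of 1.13, 2.76 and 0.994 with HaloTag and 0.962, 2.58 and 1.33 with Dendra2, and its 25R to 52R fold was 0.391. The FN1 call was lost without HaloTag 52R or Dendra2 52R, and the COL1A1 call without any 1 of the 4 libraries at 25R or 52R.

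**Figure D4:**
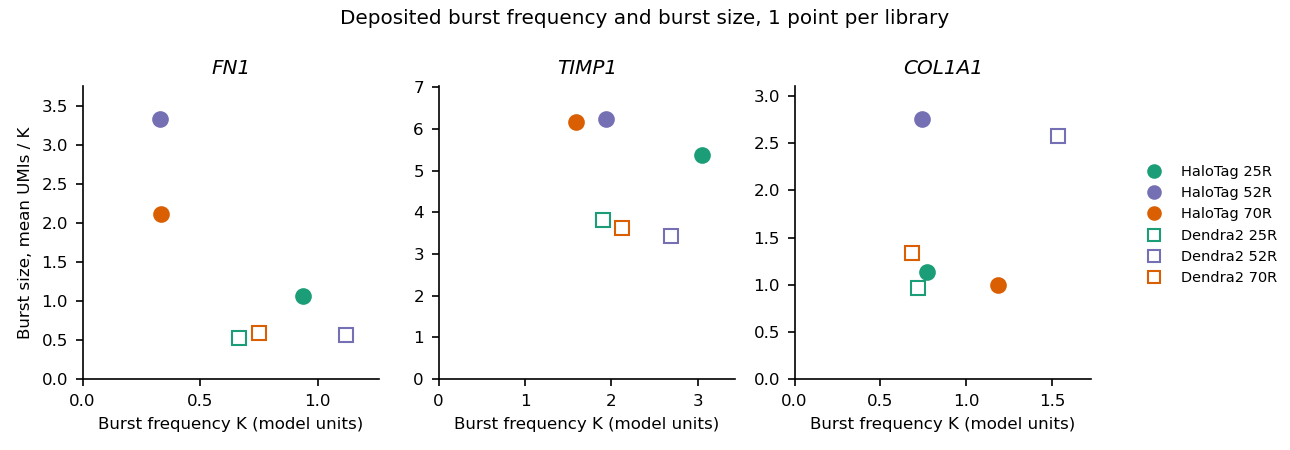
Burst frequency K against burst size (mean UMIs divided by K) for FN1, TIMP1 and COL1A1, 1 point per library, from the deposited tables. For FN1, HaloTag 52R and 70R stand apart at a low frequency (0.329 and 0.334) and a high size (3.34 and 2.11).

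FN1 was seen in 40.0% and 32.8% of the cells of HaloTag 52R and 70R before thinning, and a small set of these cells held a large share of its UMIs. Cells with at least 5 FN1 UMIs per 10000 were counted, a limit chosen after the values were seen, and the counts are given with no test. They were 44, 135 and 134 cells in HaloTag 25R, 52R and 70R, or 1.26%, 3.64% and 2.87% of cells, and 10, 3 and 6 cells in Dendra2. They held 10.0%, 38.4% and 34.4% of the FN1 UMIs in the HaloTag libraries, and 5.28%, 1.38% and 3.87% in Dendra2. Between 21 and 49 cells of each HaloTag library lay just under the limit, at 4 to 5 per 10000, and 14 to 27 just over it, at 5 to 6. Cells at 10 or more made up 1.48% and 1.33% of HaloTag 52R and 70R.

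Several other members had higher summed levels in these cells. TIMP1 was at 2427 CPM against 967 CPM in the other cells of HaloTag 25R. It was at 2675 CPM against 781 CPM in HaloTag 52R, and at 4092 CPM against 779 CPM in HaloTag 70R. COL6A3 was at 66.9 CPM (95% exact Poisson interval 54.2 to 81.6) against 14.2 CPM in 52R and at 67.5 CPM (52.6 to 85.3) against 9.95 CPM in 70R. Both intervals cover counting error only, not the spread between cells. COL1A1 was 2.27 and 2.74 times and COL4A1 2.82 and 2.12 times the level of the other cells, while SERPINH1 was 1.10 and 1.13 times. LOXL2 stood at 0.98 and 0.72 times and TIMP3 at 0.79 and 0.72 times. COL8A1 was at 1.41 and 0.34 times. All these ratios are for HaloTag 52R and 70R, and no ratio over all genes is given beside them. The cells were shallower, with a median of 10569 against 13665.5 UMIs in 52R and 7011 against 10933 UMIs in 70R. Summed G2/M genes stood at 4284 against 8426 CPM and at 3341 against 8494 CPM. In Dendra2, with only 10, 3 and 6 such cells, TIMP1 was higher in them too. It was at 820 against 428 CPM in 25R, 4161 against 478 CPM in 52R and 1268 against 386 CPM in 70R. COL6A3 was also higher in the Dendra2 cells of each length, on 10, 2 and 1 UMIs. Without all such cells the COL6A3 difference between tags was 2.01 (log2, edgeR adjusted p 0.0290), that of TIMP1 0.88 (adjusted p 0.0947) and that of FN1, which the cells were chosen on, 0.90 (adjusted p 0.131).

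**Figure D5:**
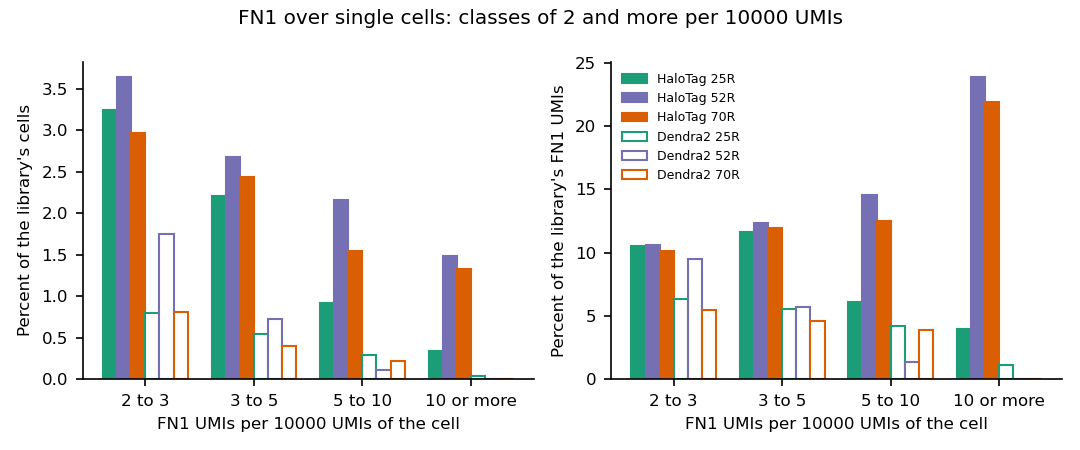
Share of each library's cells (left) and of its FN1 UMIs (right) by the FN1 UMIs per 10000 UMIs of a cell, for cells at 2 or more; filled bars are HaloTag and open bars Dendra2. HaloTag 52R and 70R have 1.48% and 1.33% of cells at 10 or more.

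Of 175 other genes of matrix and its pathways in 6 lists, 147 were tested, and none of these passed the adjusted threshold in edgeR in any of the 4 comparisons. The counts below at an unadjusted p under 0.05 stand beside 19.5% of all genes, as above. Of 18 other collagens tested, 13 had a fitted value above 0 between tags (median 0.34), beside 52.5% of all genes. At an unadjusted p under 0.05 in edgeR, 4 were higher and 1 lower. Their highest were COL11A1, a fibrillar chain of cartilage, at 2.53 to 27.5 CPM, and COL13A1, a membrane collagen, at 9.98 to 17.3 CPM. Of 33 other matrix proteins the median was 0.18, with 6 higher and 2 lower at that threshold. Their highest were MFAP5, of microfibrils, at 85.1 to 199 CPM, and EDIL3, an integrin ligand, at 16.5 to 233 CPM. Of 27 other matrix enzymes the median was -0.08 with 4 and 2, led by LOXL1 (22.6 to 79.6 CPM) and ADAMTS12 (31.6 to 59.4 CPM).

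For collagen folding and secretion the median of 24 genes was 0.03, with 3 higher and 1 lower, and PPIB and CALR were its highest, at 648 to 921 CPM and 411 to 564 CPM. For matrix receptors the median of 25 genes was 0.14 with 4 and 2, and ITGB1 and CD44 were highest, at 532 to 918 CPM and 53.6 to 196 CPM. For the TGF-β pathway, a driver of matrix genes, the median of 20 genes was 0.06 with 2 and 2. PMEPA1, a target of that pathway, had 346, 319 and 211 CPM for 25R, 52R and 70R with HaloTag, and 157, 196 and 116 CPM with Dendra2 (0.90 ± 0.13, log2, SE, adjusted p 0.0746). CCN2, another target, was at 111 to 161 CPM.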

How the data were processed

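Single-cell RNA was measured in 6 libraries. The deposited matrices hold UMI counts per gene and cell. Per the file headers, Cell Ranger 6.1.2 made them; bcl2fastq and GRCh38 are named in the submitters' processing notes. The deposited kinetic tables hold a mean, K and a squared coefficient of variation per gene. For the 4355 genes tested, the deposited squared coefficient divided by (1/mean + 1/K) had a median of 1.00014. Each table had 2 value lines without a gene name, which were left out, as were the tag sequences.

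Barcodes under 500 genes or over 20% mitochondrial counts were dropped, and no doublet caller was run. Counts were summed per library, scaled with TMM (trimmed mean of M values) and tested with edgeR 4.0.16 (quasi-likelihood, tag plus CTD length, Benjamini-Hochberg over all genes, threshold 0.05). The error term was the tag by CTD interaction (2 residual degrees of freedom). No label says that the libraries came from separate cultures, so p-values measure only the spread between them. Genes were filtered with filterByExpr. A first version gave it the design (18761 genes, 50 called between tags); the reported one gave it the tag groups (18069 genes, 47 called), chosen after the first was seen, to match the gene number of an earlier processing of these data. The number called did not match that processing, for a reason not found. Cell-cycle calls (scanpy 1.11.5, cells thinned to 5000 UMIs) were also run in 2 versions, first with libraries scored together, then within each library, and both are given; neither gave the S shares of the earlier processing. Kinetic values were tested with limma 3.58.1 on log10 K and log10(mean/K), and DESeq2 1.42.0 was run beside edgeR. The tests were tried on simulated data. Coordinates are from GENCODE v44 and sequences from RefSeq.

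All 34 members are named, and from each of the other lists the called genes and the 2 with the highest mean CPM. Members and lists were chosen with earlier results of these data known.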

Additional observations from a re-analysis of the deposited data

How the results depend on the processing

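Between tags, 2 members were called, beside 47 of 18069 genes. The number was 6 with DESeq2 (1130 of 18069 genes). With library totals, which move the median of all genes to 0.111 log2, it was 4 (64 of 18069). It was 4 without a filter on low counts (327 of 29744) and 1 in cells called neither S nor G2/M (19 of 14435). Among alternatives chosen after seeing the data it was 1 without cells high in FN1 (42 of 18047). The filter on the design, also chosen so, gave 2 (50 of 18761). Cells called neither S nor G2/M with libraries scored together, chosen so too, gave 1 (13 of 14584). The member counts that follow have no share of all genes beside them, so they are no result about the members. Leaving out 1 library gave 0 to 3 calls. For 25R minus 52R (0 called), DESeq2 gave 5, no filter gave 1 and leaving out 1 library gave 0 to 2. For 70R minus 25R (0 called), the same gave 3, 1 and 0 to 2. Burst frequency for 25R minus 52R and for 70R minus 52R went from 0 to 1 (P4HA2) without HaloTag 52R. Burst size between tags (1 called) gave 0 with all finite genes, 2 when centred on the library median and 0 to 1 without 1 library. Burst size for 25R minus 52R (1 called) gave 0 with all finite genes and 0 to 1 without 1 library, and for 70R minus 25R (0 called) 0 to 1. The cause was not tested. The median of the members stayed between 0.215 and 0.338. In all, 13 of 32 members, none with a fitted size above 0.33, changed sign in some alternative, and no called value was reversed. No paired analysis was possible because replicate numbers mark only the single library of each genotype; CTD length, which matches libraries across tags, is already a term of the reported fit.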
